A study of Mus musculus with 12 samples.

Results

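The Hox genes were taken as a list of 38 mouse genes from the 4 clusters, and each was represented by its brightest annotated probe on the array. A gene was kept where that probe had a detection p-value under 0.05 on at least 4 of the 12 arrays. That left 30 of the 38 genes among 7341 genes tested: 8 of 10 in cluster A, 8 of 10 in cluster B, 6 of 9 in cluster C and 8 of 9 in cluster D. The probes of Hoxa6, Hoxa10, Hoxb8, Hoxb13, Hoxc8, Hoxc11 and Hoxc12 were detected on 0 of 12 arrays and that of Hoxd11 on 1 of 12, so these 8 genes had no usable level here. Of the genes kept, those detected on the fewest arrays were Hoxc5, on 8, and Hoxd13, on 9. Each of the 30 genes kept was detected in samples of all 3 groups.

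RNA of whole mouse embryos of the NOD strain, which develops autoimmune diabetes spontaneously, was hybridised to Illumina bead arrays at embryonic day 10.5. The 4 control samples were pools of 4 embryos from normal pregnancies, and the 4 diabetic samples were pools of 4 embryos from diabetic pregnancies, each embryo of a pool coming from a different litter. The 4 remaining samples were single embryos, also from diabetic pregnancies, in which the neural tube was defective (NTD embryos). Diabetic dams had blood glucose above 250 mg/dL and were injected with gonadotropin from pregnant mares (5 units) before mating; for control dams no injection is stated either way, so maternal diabetes and gonadotropin cannot be told apart. Nor can the defect be told apart from the use of single embryos in place of pools, and it is not stated if any embryo in the diabetic pools had such a defect. In whole-embryo RNA, fewer cells of a type and less RNA per cell also cannot be told apart.

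Hox genes encode homeodomain transcription factors. Their order along each cluster matches the order in which they are switched on in time and along the head-to-tail axis, so that low paralog numbers mark the hindbrain and neck and high numbers the trunk, tail and distal limb. Genes of the same number in different clusters are paralogs with overlapping roles in setting vertebral and neuronal identity. The paralogs are grouped below as anterior (1 to 4), central (5 to 8) and posterior (9 to 13).

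Promoter windows are shown for Hoxb4, which rose in the diabetic pools, and for the 2 measured genes whose window held a match to TGATNNAT, a letter pattern bound by HOX proteins together with the cofactor PBX. The sequences are RefSeq promoters on GRCm38.p6, from 250 bases before to 50 bases after the transcript start, written 5′ to 3′ on the gene's strand. Capitals mark matches on either strand to TGATNNAT or to CCAAT, a common promoter box.
Hoxb4, chr11:96318017-96318316, plus strand: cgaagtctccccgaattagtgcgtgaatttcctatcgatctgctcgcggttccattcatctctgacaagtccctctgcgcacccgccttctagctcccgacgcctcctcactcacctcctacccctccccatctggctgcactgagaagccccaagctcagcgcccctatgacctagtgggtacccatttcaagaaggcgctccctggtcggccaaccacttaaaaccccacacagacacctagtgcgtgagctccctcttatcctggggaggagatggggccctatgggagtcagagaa
Hoxb1, chr11:96365508-96365807, plus strand: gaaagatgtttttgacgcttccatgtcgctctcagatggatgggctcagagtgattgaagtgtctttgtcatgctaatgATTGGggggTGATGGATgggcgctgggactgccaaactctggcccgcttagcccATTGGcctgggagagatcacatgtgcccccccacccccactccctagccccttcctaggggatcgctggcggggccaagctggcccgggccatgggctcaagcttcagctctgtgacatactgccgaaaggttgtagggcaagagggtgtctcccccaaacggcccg
Hoxa2, chr6:52164782-52165081, minus strand: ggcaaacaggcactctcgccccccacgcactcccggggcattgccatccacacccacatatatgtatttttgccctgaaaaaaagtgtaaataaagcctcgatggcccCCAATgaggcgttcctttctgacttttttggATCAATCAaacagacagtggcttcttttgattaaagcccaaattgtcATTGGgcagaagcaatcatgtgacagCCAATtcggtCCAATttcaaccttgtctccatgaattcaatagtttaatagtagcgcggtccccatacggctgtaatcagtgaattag

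The Hoxb1 window held 1 match to the HOX and PBX pattern and 2 to CCAAT, the Hoxa2 window 1 and 4, and the Hoxb4 window none to either. The search covered both strands of the 24 promoter windows that RefSeq gave for 22 of the 38 Hox genes. TGATNNAT was in 4 of the 24 Hox windows (16.7%), against 8.85% of all 32851 promoter windows, and CCAAT in 15 of 24 (62.5%), against 37.4%. TATAAA was in 4 of 24 (16.7%), against 13.6% of all windows. The median number of CpG dinucleotides was 14.5 in the Hox windows, with a range of 4 to 45, and 7.0 in all windows. These counts describe letters and not bound sites.

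Levels are given as normalized log2 intensities, and differences as log2 differences with the standard error (SE) of the limma fit on the 8 arrays of the 2 groups compared. The 12 arrays detected between 12546 and 13736 of 32766 probes. At least 1 marker was detected for most tissues that a whole embryo should hold. These were Myh6 of heart muscle, Hbb-y of primitive red cells, Nes of neuroepithelium, Meox1 of somites and Afp of liver and yolk sac endoderm. The markers measured were 3 of 4 listed for heart muscle, 4 of 4 for primitive red cells, 1 of 3 for neuroepithelium and 1 of 3 for somites. They were 2 of 2 for liver and gut endoderm and 1 of 4 for male tissue. Neither limb mesenchyme marker, Prrx1 nor Tbx5, passed the detection threshold. The male marker Kdm5d stood at 8.19 and 8.28 in control pools 1 and 2, at 4.60 and 4.42 in control pools 3 and 4, and between 7.23 and 8.97 in the diabetic pools. It stood at 9.18 and 9.05 in NTD embryos 1 and 2 and at 4.59 and 4.48 in NTD embryos 3 and 4. Control pools 3 and 4 and NTD embryos 3 and 4 thus stood apart in this marker; its part in the Hox results was not tested, and results are given below also without control pools 3 and 4.

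The first comparison set diabetic against control pools. Hoxb9, Hoxb4 and Hoxc9 rose in the diabetic pools, and no Hox gene fell at an adjusted p under 0.05. Past that threshold were 3 of 30 Hox genes, all higher, beside 2.06% of all genes tested, of which 0.845% were higher and 1.21% lower. Most other Hox genes lay slightly above the controls without passing the test: 26 of 30 differences were above 0, with a median of 0.25 and a range of −0.28 to 0.45, whereas 53.5% of all genes were above 0 and their median was 0.01. At an unadjusted p under 0.05, 16 Hox genes were higher and 1 was lower, beside 7.57% and 6.87% of all genes. In 8 Hox genes every diabetic pool exceeded every control pool, beside 4.84% of all genes, and in none was the reverse true, beside 4.51%.

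These counts depended on which pools were included, control or diabetic. With control pools 3 and 4 left out, 0 Hox genes passed, 10 were higher at an unadjusted p under 0.05, 23 differences were above 0 and the median was 0.19. The groups then did not overlap, with the diabetic pools higher, in 13 Hox genes, beside 12% of all genes. Leaving out control pool 2, control pool 4 or diabetic pool 1 alone also left 0 Hox genes past the threshold by limma, and leaving out control pool 1 or control pool 3 left 1; over the 8 such omissions, 11 to 16 were higher at an unadjusted p under 0.05. With all 12 arrays in 1 fit, 0 passed. The call of Hoxb9 was lost without control pool 1, 2 or 4 or diabetic pool 1, that of Hoxb4 without control pool 2, 3 or 4 or diabetic pool 1 or 3, and that of Hoxc9 without any single pool other than diabetic pool 2.

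**Figure D1:**
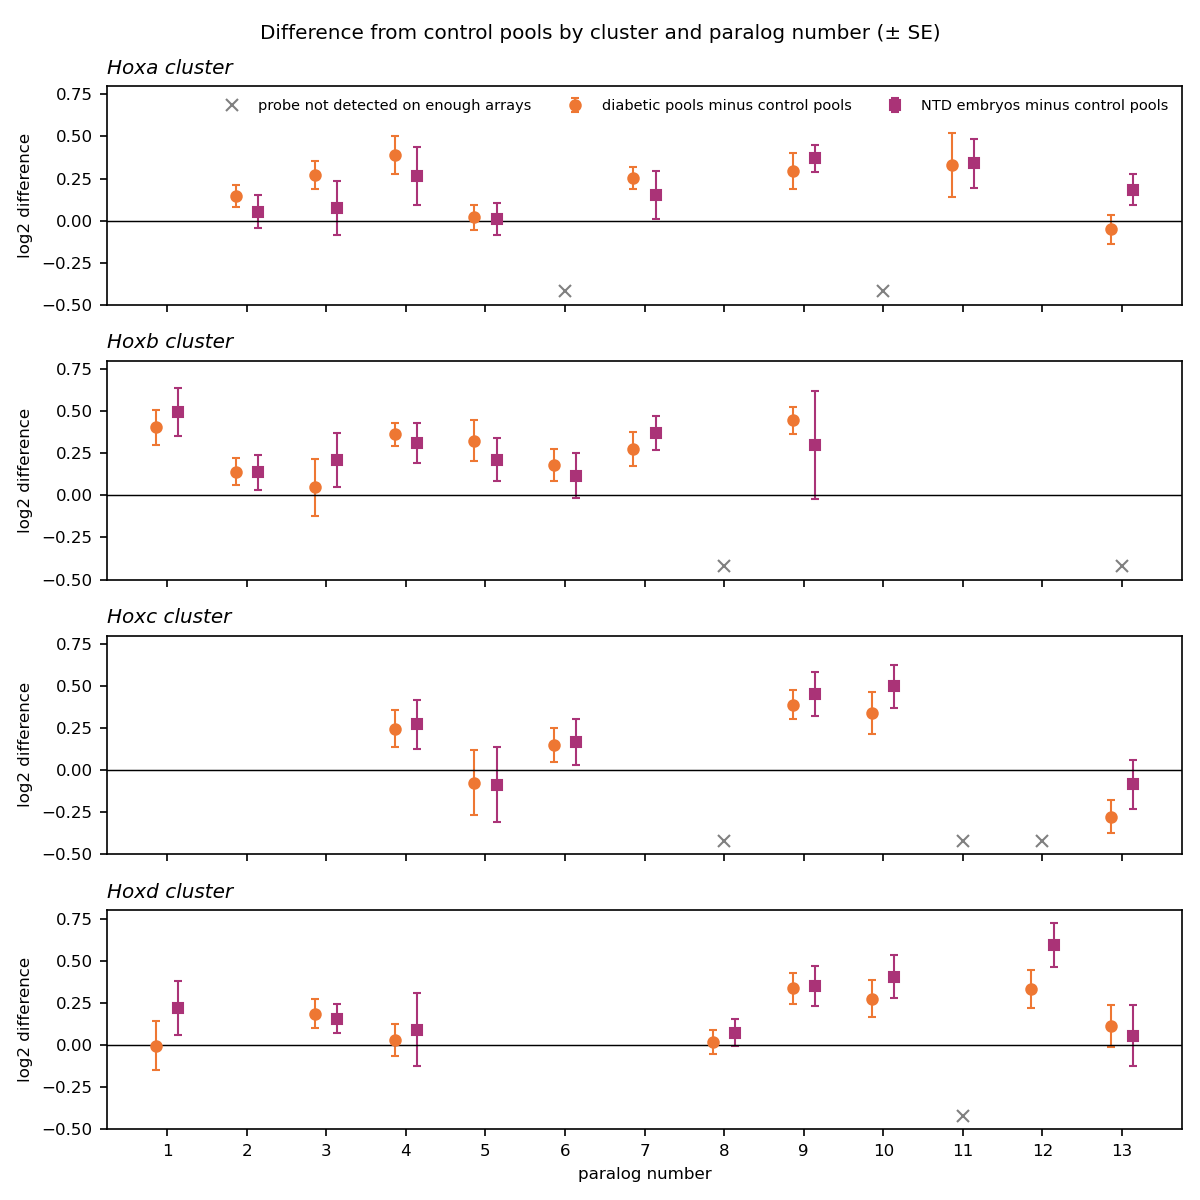
Log2 difference from the control pools (y axis, points with SE bars) by paralog number (x axis), in 1 panel per cluster, for diabetic pools (circles) and NTD embryos (squares); crosses mark genes without a usable probe and carry no value. All 8 genes of cluster B lie above 0 in both comparisons, and the 4 paralogs numbered 9 lie between 0.29 and 0.46. Not plotted are the further probes of Hoxb3, which gave −0.06, −0.07 and 0.03 in NTD embryos. Hoxb9 had −0.10 there with NTD embryo 4 left out.

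Cluster B had the most genes past the threshold. Hoxb4 patterns the hindbrain and neck. Its level was 9.03, 8.95, 8.88 and 8.93 in control pools 1 to 4, 9.30, 9.41, 9.31 and 9.22 in diabetic pools 1 to 4, and 9.14, 9.08, 9.17 and 9.65 in NTD embryos 1 to 4. The diabetic pools and the NTD embryos both lay above all control pools, and NTD embryo 4 was the highest sample. Hoxb4 rose by 0.36 ± 0.07 (SE), or 1.29-fold, in the diabetic pools (adjusted p = 0.0203), and its difference in NTD embryos was 0.31 ± 0.12 (adjusted p = 0.401). The 2 comparisons share the control pools.

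Hoxb9, a thoracic patterning gene, stood at 6.56, 6.60, 6.70 and 6.52 in the control pools, at 7.04, 7.21, 6.86 and 7.05 in the diabetic pools, and at 6.16, 6.76, 6.57 and 8.09 in the NTD embryos. The diabetic pools were all higher than the control pools, while the NTD embryos ran from below every control pool to above every other sample. It rose by 0.45 ± 0.08, or 1.36-fold, in the diabetic pools (adjusted p = 0.0192). In NTD embryos its difference was 0.30 ± 0.32 (adjusted p = 0.836), and −0.10 with NTD embryo 4 left out.

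Hoxb1, which specifies the fourth hindbrain segment and whose window above held the HOX and PBX pattern, stood at 7.24, 7.24, 7.11 and 7.25 in the control pools, at 7.66, 7.79, 7.29 and 7.72 in the diabetic pools, and at 7.53, 7.43, 7.69 and 8.18 in the NTD embryos. Neither set of embryos from diabetic pregnancies overlapped the controls. The difference was 0.40 ± 0.10 in the diabetic pools (adjusted p = 0.0754) and 0.50 ± 0.14 in the NTD embryos (adjusted p = 0.245). A further probe of the gene gave 0.44 for both comparisons.

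Hoxb7 stood at 9.48, 9.41, 9.64 and 9.20 in the control pools, at 9.75, 9.53, 9.83 and 9.71 in the diabetic pools, and at 9.89, 9.69, 9.72 and 9.90 in the NTD embryos. The NTD embryos all exceeded the control pools, and diabetic pool 2 fell within the control range. Its difference was 0.28 ± 0.10 (adjusted p = 0.226) in diabetic pools and 0.37 ± 0.10 (adjusted p = 0.222) in NTD embryos. The other members, Hoxb2, Hoxb3, Hoxb5 and Hoxb6, had differences between 0.05 and 0.32 in diabetic pools and between 0.12 and 0.21 in NTD embryos, none past the threshold.

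**Figure D2:**
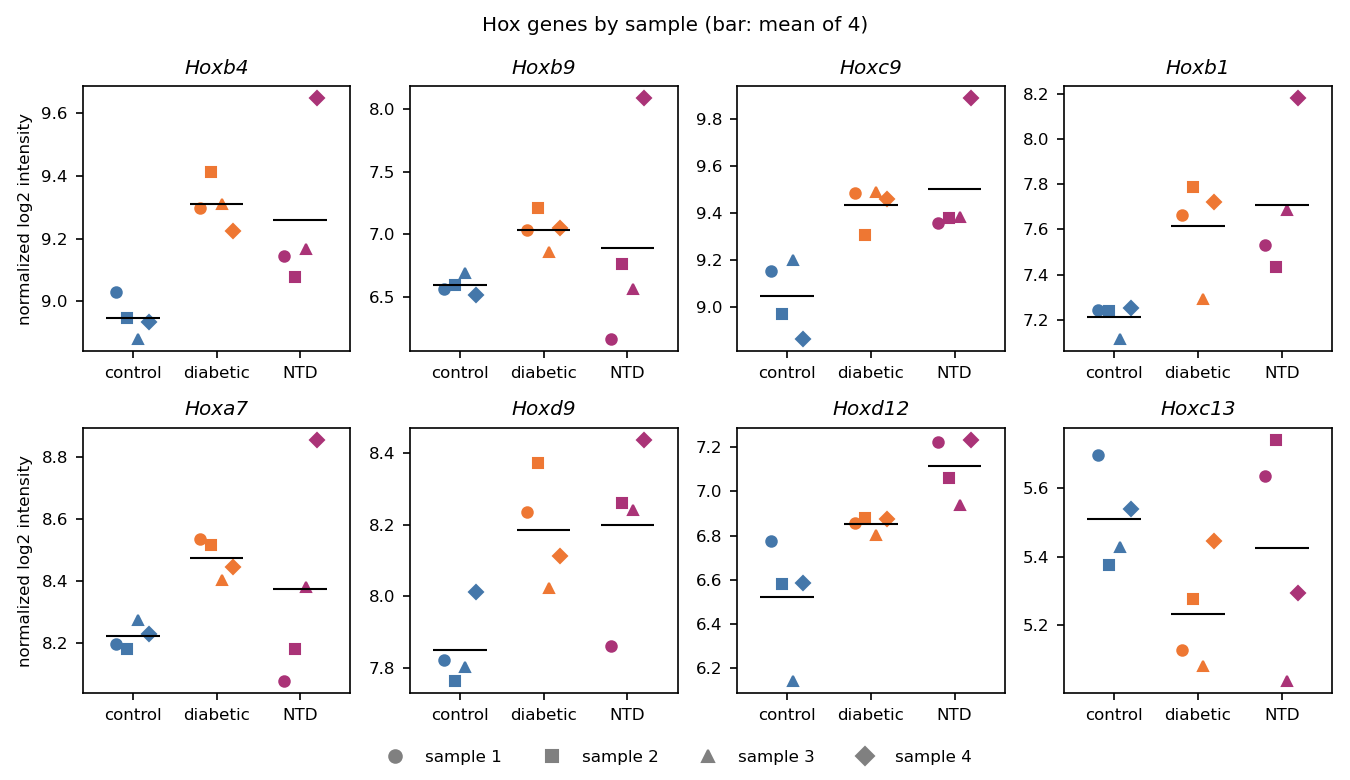
Normalized log2 intensity (y axes, each panel with its own range not starting at 0) of 8 Hox genes in the control pools, diabetic pools and NTD embryos (4 points each, marker shape for the sample number, bar for the mean). The diabetic points of Hoxb4, Hoxb9 and Hoxc9 lie above all control points, and NTD embryo 4 is the highest sample for Hoxb9 at 8.09.

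Cluster A had no gene past the threshold. Hoxa4, a cervical vertebral gene, stood at 8.23, 7.83, 7.80 and 8.01 in the control pools, at 8.27, 8.63, 8.30 and 8.22 in the diabetic pools, and at 7.88, 8.13, 8.15 and 8.77 in the NTD embryos. Control pool 1 reached into the range of both other groups. The difference was 0.39 ± 0.11 (adjusted p = 0.128) in diabetic pools and 0.27 ± 0.17 (adjusted p = 0.66) in NTD embryos.

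Hoxa7, a gene of thoracic vertebral identity, stood at 8.20, 8.18, 8.28 and 8.23 in the control pools and at 8.54, 8.52, 8.40 and 8.45 in the diabetic pools, with no overlap. In the NTD embryos it stood at 8.08, 8.18, 8.38 and 8.86, on both sides of the controls. Its difference was 0.25 ± 0.06 (adjusted p = 0.0754) in diabetic pools and 0.15 ± 0.15 (adjusted p = 0.799) in NTD embryos.

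Hoxa9, a thoracic patterning gene, stood at 6.60, 6.63, 6.71 and 6.69 in the control pools, at 7.18, 7.14, 6.68 and 6.80 in the diabetic pools, and at 6.89, 7.15, 6.97 and 7.09 in the NTD embryos. All NTD embryos were above the controls, and diabetic pool 3 was within them. The difference was 0.29 ± 0.11 (adjusted p = 0.231) in diabetic pools and 0.37 ± 0.08 (adjusted p = 0.138) in NTD embryos, and a further probe gave 0.38 and 0.37.

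Hoxa11, which patterns the forearm and the sacral region, stood at 5.96, 5.90, 5.25 and 5.87 in the control pools and at 5.785, 5.72, 6.31 and 6.47 in the diabetic pools. In the NTD embryos it stood at 6.01, 6.08, 6.24 and 6.01. The NTD embryos lay just above the controls, of which pool 3 was the lowest. Diabetic pools 1 and 2 lay within the control range and pools 3 and 4 above it. Its difference was 0.33 ± 0.19 (adjusted p = 0.474) in diabetic pools and 0.34 ± 0.15 (adjusted p = 0.455) in NTD embryos. The remaining members were Hoxa2 (0.15 in diabetic pools, 0.05 in NTD embryos), which patterns the second pharyngeal arch, Hoxa3 (0.27, 0.08), which patterns the third, Hoxa5 (0.02, 0.01) and Hoxa13 (−0.05, 0.18), a gene of the distal limb.

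In cluster C the differences were on both sides of 0. Hoxc9, which sets thoracic motor neuron identity, stood at 9.15, 8.97, 9.20 and 8.86 in the control pools, at 9.49, 9.31, 9.49 and 9.46 in the diabetic pools, and at 9.36, 9.38, 9.38 and 9.89 in the NTD embryos. Both groups from diabetic pregnancies lay above every control pool. It rose by 0.39 ± 0.09, or 1.31-fold, in the diabetic pools (adjusted p = 0.0461), and its difference in NTD embryos was 0.46 ± 0.13 (adjusted p = 0.244).

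Hoxc10, a lumbar gene, stood at 8.92, 8.68, 8.55 and 8.83 in the control pools, at 9.35, 8.74, 9.16 and 9.09 in the diabetic pools, and at 9.22, 9.43, 8.90 and 9.43 in the NTD embryos. Diabetic pool 2 and NTD embryo 3 fell within the control range. Its difference was 0.34 ± 0.12 (adjusted p = 0.231) in diabetic pools and 0.50 ± 0.13 (adjusted p = 0.196) in NTD embryos, and a further probe gave 0.10 and 0.34.

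Hoxc13, known for its role in hair, was the 1 Hox gene with a lower level at an unadjusted p under 0.05. It stood at 5.70, 5.37, 5.43 and 5.54 in the control pools, at 5.13, 5.28, 5.08 and 5.45 in the diabetic pools, and at 5.63, 5.74, 5.04 and 5.29 in the NTD embryos. Diabetic pool 4 overlapped the controls and the NTD embryos lay on both sides of them. The difference was −0.28 ± 0.10 (adjusted p = 0.214) in diabetic pools and −0.08 ± 0.15 (adjusted p = 0.921) in NTD embryos, and the probe was detected on 10 of 12 arrays. Hoxc4 had differences of 0.25 and 0.27, Hoxc5 of −0.07 and −0.09, and Hoxc6 of 0.15 and 0.17.

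In cluster D no gene passed the threshold, and the larger differences were at numbers 9, 10 and 12. Hoxd9 stood at 7.82, 7.76, 7.80 and 8.01 in the control pools, at 8.23, 8.37, 8.02 and 8.11 in the diabetic pools, and at 7.86, 8.26, 8.24 and 8.44 in the NTD embryos. The diabetic pools lay above all controls, pool 3 by a small margin, and NTD embryo 1 was within the controls. Its difference was 0.34 ± 0.09 (adjusted p = 0.0915) in diabetic pools and 0.35 ± 0.12 (adjusted p = 0.328) in NTD embryos.

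Hoxd10, which marks lumbar motor neurons, stood at 9.35, 9.19, 9.12 and 9.11 in the control pools, at 9.40, 9.18, 9.61 and 9.68 in the diabetic pools, and at 9.94, 9.52, 9.67 and 9.27 in the NTD embryos. Each group from diabetic pregnancies had 1 sample within the control range. The difference was 0.27 ± 0.11 (adjusted p = 0.261) in diabetic pools and 0.41 ± 0.13 (adjusted p = 0.292) in NTD embryos.

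Hoxd12, a gene of the distal limb bud, stood at 6.78, 6.58, 6.14 and 6.59 in the control pools, at 6.86, 6.88, 6.80 and 6.88 in the diabetic pools, and at 7.22, 7.06, 6.94 and 7.23 in the NTD embryos. The 3 groups did not overlap, with the NTD embryos highest. Its difference from the controls was 0.33 ± 0.11 (adjusted p = 0.203) in diabetic pools and 0.59 ± 0.13 (adjusted p = 0.148) in NTD embryos. With all 12 arrays in 1 fit the NTD difference passed the threshold (adjusted p = 0.0455). That fit takes 1 spread for all 3 groups, and the difference did not pass in the other 18 of 19 alternatives. Hoxd1, Hoxd3, Hoxd4, Hoxd8 and Hoxd13 had differences between 0.00 and 0.19 in diabetic pools, that of Hoxd1 just under 0, and between 0.05 and 0.22 in NTD embryos.

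By cluster, the median difference in diabetic pools was 0.26 in A, 0.30 in B, 0.20 in C and 0.15 in D. By paralog class it was 0.19 for the 11 anterior, 0.16 for the 8 central and 0.33 for the 11 posterior genes. Without control pools 3 and 4 these class medians were 0.19, 0.21 and 0.19, so the posterior median was then not the highest, and without the detection filter they were 0.19, 0.048 and 0.19. Within the posterior class the numbers differed: the 4 paralogs numbered 9 had a median of 0.36 and a range of 0.29 to 0.45, with no overlap between diabetic and control pools in 3 of them, whereas the 3 numbered 13 had a median of −0.05. The 4 paralogs numbered 4 had a median of 0.31, with Hoxd4 at 0.03. Between the difference and the paralog number across the 30 genes, Spearman's rho was 0.062 in diabetic pools and 0.2 in NTD embryos; these genes share the same libraries, and rho is given as a description. The 9 genes with a mean level under 6 had a median difference of 0.05 in diabetic pools and the 21 brighter ones 0.28. All 3 genes numbered 13 were among the dim ones, Hoxa13 at 5.69, Hoxc13 at 5.39 and Hoxd13 at 5.24. The 4 genes numbered 9 stood at 6.84 to 9.33, so paralog number and level cannot be told apart in that contrast. A further probe of Hoxa13 gave 0.14 in diabetic pools.

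The second comparison set the single NTD embryos against control pools and differs from the first in defect and pooling. By limma, 0 Hox genes passed at an adjusted p under 0.05, beside 0.0954% of all genes, with 0.0272% higher and 0.0681% lower. At an unadjusted p under 0.05, 10 were higher and 0 lower, beside 5.5% and 4.74% of all genes. Of the 30 differences, 28 were above 0, with a median of 0.21, whereas 52.1% of all genes were above 0. In 7 Hox genes every NTD embryo exceeded every control pool, beside 3.51% of all genes, and in 0 was every NTD embryo lower, beside 2.86%. The 7 were Hoxa9, Hoxa11, Hoxb1, Hoxb4, Hoxb7, Hoxc9 and Hoxd12.

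Median differences in NTD embryos were 0.17 in cluster A, 0.26 in B, 0.22 in C and 0.19 in D, and 0.21, 0.14 and 0.35 for anterior, central and posterior genes. The largest single difference was that of Hoxd12 (0.59), followed by Hoxc10 (0.50) and Hoxb1 (0.50). With NTD embryo 4 left out, 21 of 30 differences were above 0, 11 genes were higher at an unadjusted p under 0.05 and the median was 0.12. The medians of clusters A to D were then 0.16, 0.10, 0.18 and 0.12, and those of the anterior, central and posterior genes 0.09, 0.02 and 0.33. The groups did not overlap in 8 Hox genes, beside 7.25% of all genes, without NTD embryo 4, and also in 8, beside 7.02%, without control pools 3 and 4. Without these 2 pools, 0 Hox genes passed by limma and 7 were higher at an unadjusted p under 0.05. Of the 30 differences, 26 were then above 0, with a median of 0.19.

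**Figure D3:**
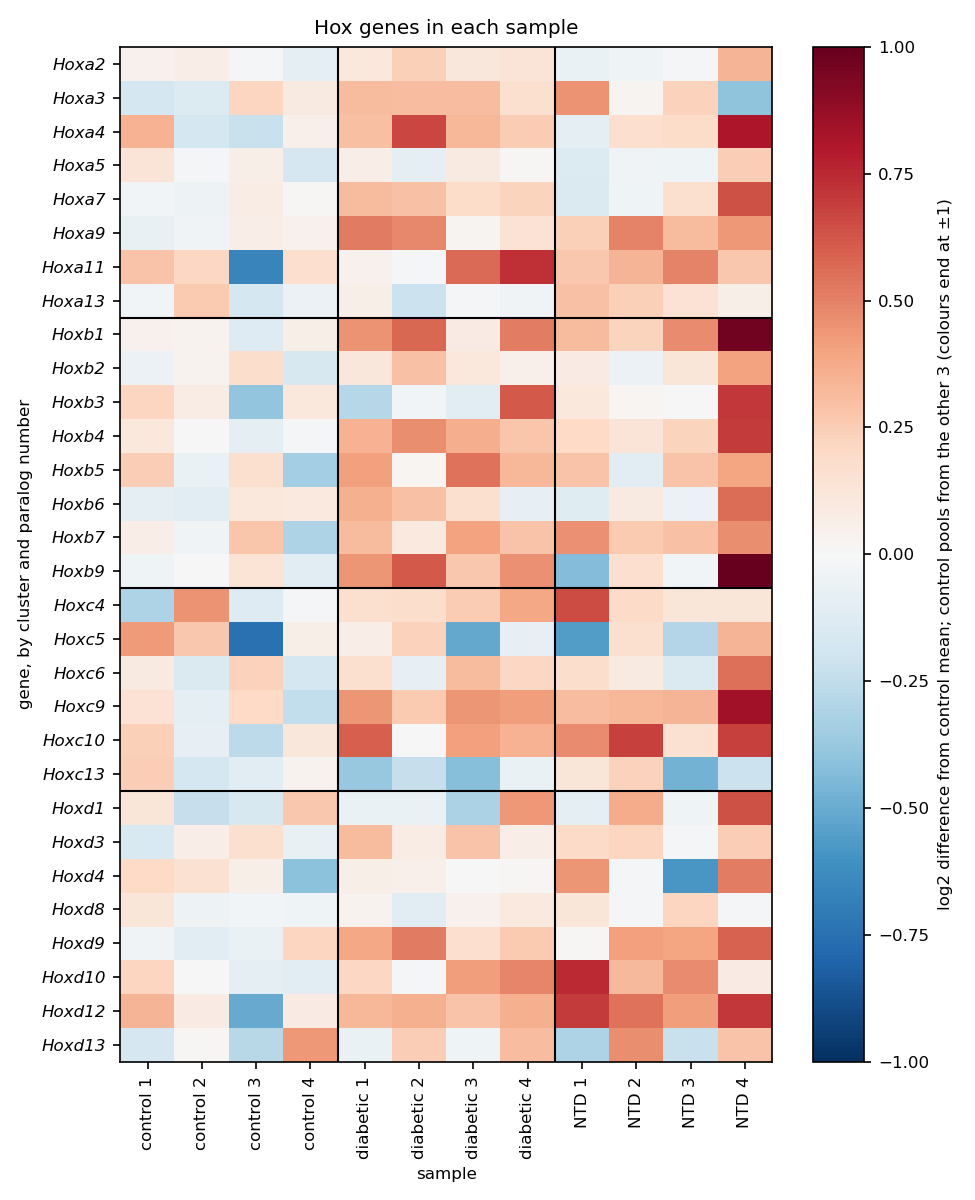
Log2 difference of each of 30 Hox genes (rows, by cluster and paralog number, black lines between clusters) in each of the 12 samples (columns) from the mean over the control pools, or, for a control pool, from the mean of the other 3; the colour scale ends at −1 and 1. In the column of NTD embryo 4 all 8 genes of cluster B are red, with a mean difference of 0.71.

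The samples differed among themselves. Differences averaged over the 30 Hox genes were taken from the mean of the control pools, and for each control pool from the mean of the other 3. They were 0.08, 0.01, −0.07 and −0.02 in control pools 1 to 4, 0.20, 0.18, 0.16 and 0.24 in diabetic pools 1 to 4, and 0.16, 0.19, 0.10 and 0.45 in NTD embryos 1 to 4. Every sample from a diabetic pregnancy thus lay above every control pool on this average, and NTD embryo 4 lay above all others. The group values were 0.20 ± 0.04 (SD, n = 4) for the diabetic pools and 0.23 ± 0.15 for the NTD embryos. Between 13 and 23 of 30 genes in each sample from a diabetic pregnancy exceeded every control pool, against 23.6% to 32% of all genes. In control pools 1 to 4, each set against the other 3, the counts were 13, 3, 10 and 4 of 30, against 20.99% to 27.35% of all genes. Control pool 1 thus reached the lowest count of the samples from diabetic pregnancies, though against 3 pools and not 4.

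NTD embryo 4 had the highest level among the NTD embryos in 21 of 30 Hox genes. In cluster B its mean difference was 0.71, with 8 of 8 genes above every control pool, against 0.11, 0.09 and 0.16 in NTD embryos 1 to 3 and 0.23 to 0.31 in the diabetic pools. In the central class it was 0.40, against 0.01 to 0.05 in the other NTD embryos. NTD embryo 2 had 11 of 11 posterior genes above every control pool, with a mean of 0.38, and a mean of 0.05 over the central genes. The median SD between samples of a group was 0.14 in control pools, 0.15 in diabetic pools and 0.26 in NTD embryos for the Hox genes, and 0.10, 0.13 and 0.16 for all genes. Single embryos and pools of 4 differ in how many animals each value averages, and its part in this spread was not tested.

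**Figure D4:**
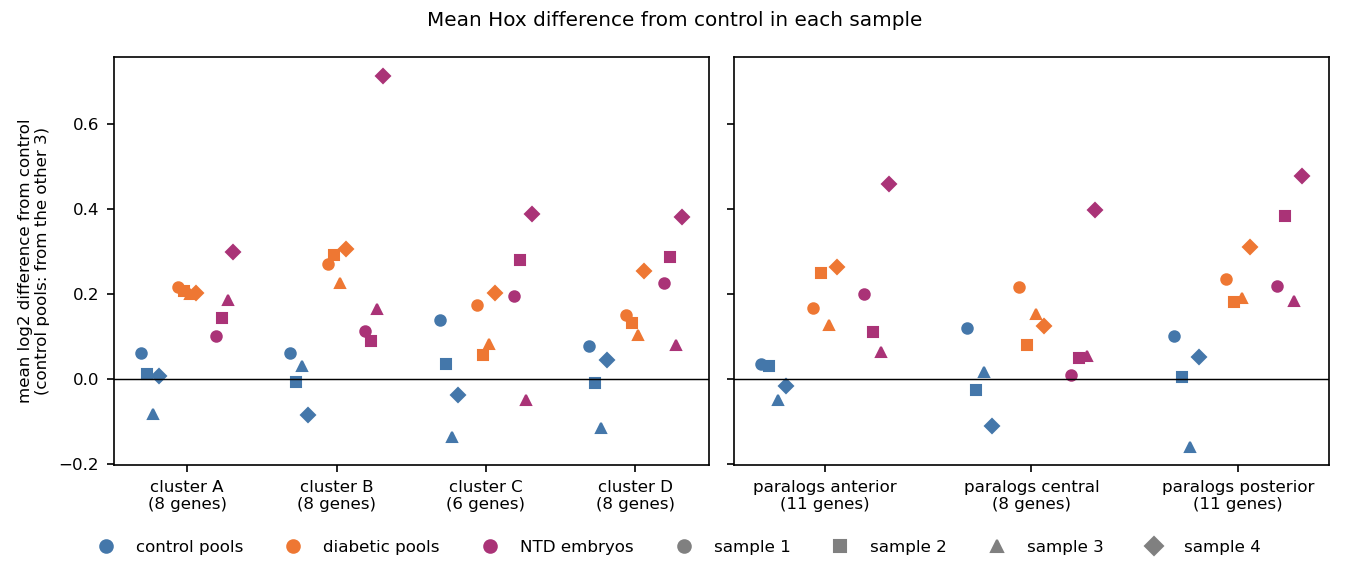
Mean log2 difference from the mean of the control pools (y axis; control pools, from the mean of the other 3) over the Hox genes of each cluster (left) and paralog class (right), with 1 point per sample, coloured by group and shaped by sample number. NTD embryo 4 stands at 0.71 in cluster B, where the other NTD embryos lie at 0.16 or below.

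NTD embryos and diabetic pools, which both come from diabetic pregnancies, were compared last. By limma, 0 Hox genes passed, as did 0% of all genes. At an unadjusted p under 0.05, 2 were higher and 0 lower, beside 1.63% and 1.42% of all genes. These were Hoxd12 (0.26 ± 0.09) and Hoxa13 (0.24 ± 0.09), both with an adjusted p of 0.996. In both genes every NTD embryo lay above every diabetic pool, beside 1.12% of all genes, and in 0 Hox genes was every NTD embryo lower, beside 0.831%. The median over the 30 genes was 0.02, with 17 above 0, and −0.06, with 11 above 0, without NTD embryo 4. By cluster the medians were −0.05, −0.03, 0.05 and 0.06 in A to D. They were 0.00 for the anterior and −0.01 for the central genes, both slightly under 0, and 0.08 for the posterior genes. Without NTD embryo 4 the medians of A to D were −0.06, −0.13, 0.01 and 0.01, and those of the 3 classes −0.07, −0.13 and 0.06. A further probe of Hoxa13 gave −0.14.

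Among genes that act with or upstream of Hox genes, Cbx8, a Polycomb subunit that reads a repressive histone mark, fell by 0.45 ± 0.07 in diabetic pools (adjusted p = 0.00909), the 1 of 7 measured Polycomb genes past the threshold. Its difference in NTD embryos was −0.29 (adjusted p = 0.556). The Polycomb subunit Bmi1 had −0.23 (adjusted p = 0.141) and −0.16 (adjusted p = 0.629). The call of Cbx8 was lost with all 12 arrays in 1 fit (adjusted p = 0.258). The medians of the 7 Polycomb genes were −0.05 in diabetic pools and −0.12 in NTD embryos.

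Of 7 measured upstream factors none passed. Cdx2, a caudal homeodomain activator of Hox genes, had 0.43 ± 0.16 in diabetic pools (adjusted p = 0.233) and 0.71 ± 0.19 in NTD embryos (adjusted p = 0.213). Aldh1a2, which makes the retinoic acid that switches on anterior Hox genes, had 0.28 (adjusted p = 0.213) in diabetic pools and 0.11 in NTD embryos. The hindbrain boundary gene Gbx2 had 0.35 (adjusted p = 0.568) in NTD embryos. The medians of the list were 0.09 and 0.11. Of 9 listed TALE cofactors, which bind DNA beside HOX proteins, 3 were measured, and no PBX gene was among them. None of the 3 passed: Meis3 had 0.21 and 0.13, Meis2 0.04 and 0.04, and the list medians were 0.04 in both. Nor did any of the 4 measured Trithorax genes and demethylases, with medians of 0.04 and −0.05, where Ash2l and Men1 had 0.10 and 0.12 in diabetic pools and Kdm6b and Kmt2a −0.17 and −0.13 in NTD embryos. Of 4 measured neighbours of the clusters none passed, with medians of 0.10 and 0.12; Mtx2, which lies beside cluster D, had 0.42 ± 0.11 in diabetic pools (adjusted p = 0.0754) and 0.28 in NTD embryos, and Evx1, beside cluster A, had 0.14 and 0.19.

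Regional markers are given beside the Hox genes, since the latter are used along the trunk, tail and limbs and not in the forebrain. Of 16 listed forebrain and midbrain genes 5 were measured. Among them En2, a gene of the boundary between midbrain and hindbrain, rose by 0.55 ± 0.10 in diabetic pools (adjusted p = 0.0208). None passed in NTD embryos, where En2 had 0.57 ± 0.29 (adjusted p = 0.549). There Lhx2 had −0.43 (adjusted p = 0.407), Lhx5 −0.26 (adjusted p = 0.588), Dmbx1 0.34 (adjusted p = 0.506) and En1 0.13 (adjusted p = 0.76). The medians of the 5 genes were 0.19 in diabetic pools and 0.13 in NTD embryos. Of 3 measured somite genes, Meox1 rose by 0.37 ± 0.08 in diabetic pools (adjusted p = 0.0333) and had 0.33 (adjusted p = 0.19) in NTD embryos, where Foxc2 had 0.20; the medians were 0.18 and 0.20. Of 8 listed spinal cord neuron genes 4 were measured. Among these Neurog2, a proneural factor, fell by 0.44 ± 0.08 in diabetic pools (adjusted p = 0.0183). In NTD embryos Neurog2 had −0.38 ± 0.20 (adjusted p = 0.573), Lhx1 −0.62 (adjusted p = 0.487) and Isl1 −0.21. Lhx3 went the other way, with 0.10 in diabetic pools and 0.14 in NTD embryos. The medians were −0.20 and −0.29.

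Neither the 7 measured tail bud genes, with medians of 0.09 and 0.11, nor the 7 measured limb bud genes, with medians of 0.04 and 0.00, had a gene past the threshold. Each of these lists held 15 genes, of which 7 were measured. By p, Cdx2, given above, and Greb1 (0.17) came first in the tail bud list in diabetic pools, and Cdx2 and Fgf8 (0.18) in NTD embryos, where Evx1 had 0.19. In each comparison 5 of the 7 tail bud differences were above 0. Those below were Cyp26a1 (−0.059) and Fgf8 (−0.034) in diabetic pools, and Cyp26a1 (−0.055) and Cdx1 (−0.044) in NTD embryos. In the limb list Grem1 had 0.25 (adjusted p = 0.145) and Msx1 −0.15 in diabetic pools, and Msx1 had −0.25 and Fgf10 0.22 in NTD embryos. The mean difference of the tail bud list was 0.10 to 0.14 in the diabetic pools, −0.18 to 0.14 in the control pools, each set against the other 3, and 0.28, −0.04, 0.14 and 0.30 in NTD embryos 1 to 4. The mean difference of 3 heart muscle markers was 0.17, 0.37, 0.62 and 0.45 in NTD embryos 1 to 4 and −0.04 to 0.19 in the diabetic pools. That of 4 primitive red cell markers was −0.17, 0.04, −0.42 and −0.40 in NTD embryos 1 to 4 and −0.15 to 0.03 in the diabetic pools. In NTD embryos against controls Myh6 had 0.54 ± 0.10 (adjusted p = 0.1135) and Myl7 0.39 (adjusted p = 0.284). Hba-x there had −0.32 (adjusted p = 0.417) and Klf1 −0.50 (adjusted p = 0.439). The part of regional or tissue makeup in the Hox differences was not tested. Without control pools 3 and 4, the calls of En2, Meox1 and Neurog2 were lost (adjusted p = 0.1, 0.292 and 0.228), as they were with all 12 arrays in 1 fit (adjusted p = 0.542, 0.0834 and 0.468). Leaving out single pools, the call of En2 was lost without control pool 2 or 4 or diabetic pool 1 or 3 (adjusted p up to 0.0756), that of Neurog2 without control pool 1, 3 or 4 (up to 0.0734), and that of Meox1 without any single pool other than diabetic pool 2 (up to 0.0974). Meox1 also missed the threshold under median scaling (adjusted p = 0.102), and En2 and Meox1 with the deposited processed values (adjusted p = 0.0568 and 0.0631).

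Further probes of Hox genes that passed the detection filter, 10 of them for 8 genes, gave the sign of the chosen probe for 9 in diabetic pools, for 8 in NTD embryos against controls and for 5 in NTD embryos against diabetic pools. The exception in the first comparison was Hoxa13, with 0.14 against −0.05. Those in the second were 2 probes of Hoxb3, with −0.06 and −0.07 against 0.21.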

How the data were processed

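Arrays of 12 samples were analysed. The deposited table gives, per the file headers, the average bead intensity of each probe without normalization, the count of beads, the standard error of the bead signal and a detection p-value. A second deposited table holds the authors' processed intensity on a linear scale with background subtracted; its scaling method is not stated, and it was used as an alternative. Per the submitters' processing notes, GenomeStudio was used (version not given). Samples fell into 3 groups of 4 by their labels.

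Intensities were background-corrected and quantile-normalized with neqc (limma 3.58.1, R 4.3.3; offset 16), negative controls being inferred from detection p-values. Of 32766 probes, 13876 passed the detection filter (4 or more of the 12 arrays with a detection p under 0.05), and 11247 of these named 1 gene. The brightest probe represented each of 7341 genes. Each comparison was fitted with lmFit and eBayes on its 8 arrays, with Benjamini-Hochberg adjustment over all 7341 genes and a threshold of 0.05. The fit was tested on simulated data, drawn independently for each gene with the same spread in all groups. That test does not cover a wider spread in NTD embryos than in pools. P-values set a difference against the spread between samples within groups, taken per gene as equal in both groups. In the comparisons with NTD embryos, pools and single embryos share that spread. The median SD of Hox genes was 0.14 in control pools, 0.15 in diabetic pools and 0.26 in NTD embryos. Having 4 arrays per group limits the precision.

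The Hox list and the other gene lists were chosen with earlier results of these data known, so lists are described by counts and medians and carry no test. Per-sample values are given for Hox genes past the threshold and for the 2 of each cluster with the smallest p in either comparison with controls. Of each other list, genes past the threshold are named, or otherwise the 2 with the smallest p. Tissue markers are named in this way only for heart muscle and primitive red cells, in NTD embryos against controls. Genes past the threshold in diabetic pools are also given for NTD embryos, as are all measured forebrain and midbrain genes. Alternatives covered background, scaling, probe choice, detection filter, array weights, a replicate block, the deposited processed table and leaving out samples.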

Additional observations from a re-analysis of the deposited data

Results flagged for a closer look

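In each group of 4, a sample was picked out where its gap to the nearest other sample was, as a share of the group's range, above Dixon's limit. Chance picks out about 1 in 20 groups, or 4.5 of the 90 gene-by-group tests, and 11 were picked out, with 2 of 24 tests of mean differences. The genes share the same 4 samples of each group, so these tests are not independent. An excess over chance was therefore not tested.

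In NTD embryo 4, Hoxa2 stood at 9.80 (the others at 9.40 to 9.46), Hoxb3 at 6.45 (5.74 to 5.85), Hoxb4 at 9.65 (9.08 to 9.17) and Hoxc9 at 9.89 (9.36 to 9.38). Its mean difference from the controls was 0.71 over cluster B (0.09 to 0.16 in the others) and 0.40 over the central paralogs (0.01 to 0.05). In NTD embryo 1, Hoxc4 stood at 5.87 (5.34 to 5.40).

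Among the diabetic pools, Hoxa2 stood at 9.71 in pool 2 (9.58 to 9.59), Hoxc9 at 9.31 in pool 2 (9.46 to 9.49) and Hoxa3 at 5.63 in pool 4 (5.78 to 5.79). Among the control pools, Hoxa11 stood at 5.25 in pool 3 (5.87 to 5.96), Hoxb1 at 7.11 in pool 3 (7.24 to 7.25) and Hoxd8 at 9.22 in pool 1 (9.09 to 9.11).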

How the results depend on the processing

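No median over all Hox genes or over a cluster against controls changed sign under any of the 19 alternatives. The count of Hox genes that rose in diabetic pools (3) did change: it was 0 under median scaling, with all 12 arrays in 1 fit and without control pools 3 and 4, 5 with the mean of a gene's probes, and 0 to 3 leaving out single samples. Hoxb4 passed in 10 of 19 alternatives (adjusted p 0.00843 to 0.249), Hoxb9 in 11 (0.0126 to 0.662) and Hoxc9 in 6 (0.0223 to 0.258). In NTD embryos against controls 1 Hox gene passed with all 12 arrays in 1 fit. The median difference of all measured Hox genes in diabetic pools was 0.16 without background subtraction, 0.19 under median scaling, 0.15 without the detection filter, 0.19 without control pools 3 and 4 and 0.20 to 0.24 leaving out single samples. That of cluster A was 0.18, 0.19 and 0.20 under the first 3 of these. Cluster B had 0.22 under median scaling, 0.23 without the filter and 0.22 to 0.34 leaving out single samples. Cluster C had 0.048 without the filter and 0.34 with probes detected on all 12 arrays, which leaves 3 genes. In NTD embryos, cluster A had 0.034 under median scaling and cluster C 0.46 with probes detected on all 12 arrays. The cause was not tested. Median scaling moved the median of all genes to −0.06 in diabetic pools and to −0.10 in NTD embryos, against which the Hox medians were 0.19 and 0.08; the median of the central genes in NTD embryos was then just under 0. It gave 23 genes higher and 141 lower in diabetic pools, against 62 and 89. Same-numbered samples did not deviate together in every pair: the correlations were −0.27 to 0.08 for diabetic and control pools, 0.01 to 0.30 for NTD embryos and control pools, where the own number was the best match in 3 of 4, and −0.20 to 0.27 for NTD embryos and diabetic pools. The labels tie no number to a shared litter or batch, so the samples share only a number. With the number as a replicate block, 0 Hox genes passed in any of the 3 comparisons, and Cbx8, Meox1 and Neurog2 missed the threshold in diabetic pools (adjusted p = 0.0762, 0.134 and 0.0743). The counts of genes without overlap, leaving out NTD embryo 4 or control pools 3 and 4, were chosen after the data were seen. Dim probes limit the low end: 5 of the 30 genes were not detected on all 12 arrays.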
